A study of Homo sapiens with 8 samples.

Results

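The 10 genes described here (TGFBR2, IGFBP3, DKK1, FOXO1, TNC, CD44, NT5E, THBS1, ZYX and LOX) were listed as mesenchymal and tumor-suppressive genes held down by EWSR1::FLI1, the fusion transcription factor of Ewing sarcoma (EwS). They were chosen by name, as genes repressed by the fusion, with earlier results of these data known. Whether the fusion represses each of them in these cells was not tested. All 10 of 10 were found among the 60332 genes of the expression table. The question put to the data was whether their expression rises in hypoxia, where the expression of FLI1 falls, and how silencing of an EWSR1::FLI1-bound enhancer bears on it. RNA-seq was performed in SK-N-MC, an established EwS cell line, in 8 libraries that form 4 groups of 2 biological duplicates. Every cell had received a lentivirus with dCas9-KRAB, a nuclease-dead Cas9 joined to a transcriptional repressor domain, followed by puromycin selection. Control cells carried the empty dCas9-KRAB vector with no guide, and were kept in normoxia or for 16 h at 1% oxygen (hypoxia). The eKD1 and eKD2 cells each carried a different guide that places the repressor next to the GGAA microsatellite enhancer of LOXHD1, and the libraries analysed here come from 16 h at 1% oxygen. They are polyclonal pools with 1 guide each, so a guide cannot be told apart from the pool it was used in. No eKD library from normoxia was analysed here.

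EWSR1::FLI1 joins the amino-terminal part of EWSR1 to the DNA-binding ETS domain of FLI1. At GGAA repeats it opens chromatin and activates genes, while at many mesenchymal genes it lowers transcription, in part by displacing other ETS factors and in part through repressors such as NKX2-2 that it switches on. When the fusion is lowered experimentally, EwS cells are known to gain matrix, adhesion and cytoskeletal genes. Hypoxia acts mainly through the HIF factors, whose binding core is ACGTG, and lysyl oxidase is a textbook HIF target.

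The promoters of 3 genes are printed to show how the binding letters of these factors lie at the gene that rose most in hypoxia (LOX), at the other gene that rose (ZYX) and at the gene with the most ETS cores (TNC). They are RefSeq sequences on GRCh38.p14, from 250 bases before to 50 bases after the annotated gene start, read 5′ to 3′ along the gene. Capitals mark GGAA, the ETS core, and ACGTG, the HIF core, each on either strand, so that a match on the opposite strand reads TTCC or CACGT. The LOX window is chr5:122078210-122078509 on the minus strand, the ZYX window chr7:143381095-143381394 on the plus strand and the TNC window chr9:115118108-115118407 on the minus strand.
LOX: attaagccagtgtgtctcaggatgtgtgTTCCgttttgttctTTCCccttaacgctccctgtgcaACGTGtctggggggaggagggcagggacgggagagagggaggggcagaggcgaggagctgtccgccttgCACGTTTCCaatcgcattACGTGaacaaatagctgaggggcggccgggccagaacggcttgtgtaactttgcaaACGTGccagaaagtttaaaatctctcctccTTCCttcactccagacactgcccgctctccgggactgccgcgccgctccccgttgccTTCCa
ZYX: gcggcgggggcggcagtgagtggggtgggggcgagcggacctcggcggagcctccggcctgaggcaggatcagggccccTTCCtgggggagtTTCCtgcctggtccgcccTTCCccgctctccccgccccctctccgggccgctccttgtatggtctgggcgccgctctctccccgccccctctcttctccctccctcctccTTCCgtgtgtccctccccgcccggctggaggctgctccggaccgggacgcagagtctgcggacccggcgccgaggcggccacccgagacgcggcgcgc
TNC: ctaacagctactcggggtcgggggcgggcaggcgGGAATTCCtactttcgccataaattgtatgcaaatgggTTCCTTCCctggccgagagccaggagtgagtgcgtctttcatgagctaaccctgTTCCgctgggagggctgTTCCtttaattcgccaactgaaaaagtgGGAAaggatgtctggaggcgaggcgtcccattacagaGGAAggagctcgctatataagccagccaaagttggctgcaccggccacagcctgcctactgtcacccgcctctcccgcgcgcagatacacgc

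The LOX window held 4 matches to ACGTG and 5 to GGAA. The HIF core was present in 21.4% of all 35116 promoters of this length, and 0.843% held at least 4 of them. Its matches in LOX began 185, 116, 98 and 42 bases before the gene start, and that at 116 bases directly adjoined a GGAA match on the same strand. The ZYX window held 4 matches to GGAA and 0 to ACGTG. GGAA was present in 95.5% of all promoters with a median of 3 per promoter, so its presence does not set these genes apart. TNC had 8 GGAA matches, a number reached by 3.78% of promoters, and 2 of them formed the repeat GGAAGGAA, which 3.67% of promoters hold and the other 9 genes did not. Among the other genes, 1 ACGTG match each lay in the windows of TGFBR2 and CD44. GGAATG, the TEAD core, overlaps the ETS core by its first 4 letters and was found once each in DKK1 and THBS1, against 14% of all promoters. The CArG box of SRF (1.29% of promoters), the forkhead motif TGTTTAC (3.42%) and the AP-1 motif TGACTCA (4.95%), searched on both strands, were in 0 of the 10 windows. A match is a string of letters in this window and not a measured binding site, and the annotated start need not be the start used in SK-N-MC.

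**Figure D1:**
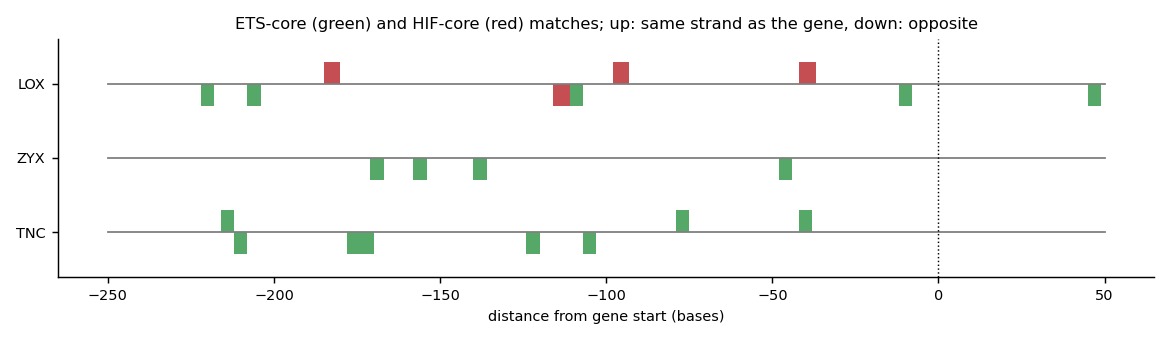
Matches to the ETS core (green) and the HIF core (red) in the promoters of LOX, ZYX and TNC, by distance from the annotated gene start in bases (x axis). Boxes above a line lie on the strand of the gene and boxes below it on the opposite strand. LOX has 4 red boxes, ZYX and TNC have none, and TNC has 8 green boxes, 2 of them side by side on the same strand. The TNC boxes at 216 and 212 bases before the start also adjoin, on opposite strands.

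Expression is given in FPKM, a read density that is divided by transcript length and by the size of the library, so that levels can be compared between genes. A gene was tested where 2 or more of the 8 libraries reached 1 FPKM, which held for 15372 genes. Of the 10 genes, 6 passed (LOX, ZYX, NT5E, THBS1, FOXO1 and TNC) and 4 did not (TGFBR2, IGFBP3, DKK1 and CD44). Changes are differences of log2(FPKM + 1), which understates the change of low genes, with the standard error (SE) and an adjusted p from limma over all tested genes, and the word called stands for an adjusted p under 0.05. With 2 libraries a group, these p-values measure the spread between duplicates. The column totals ran from 865107 to 1041457 FPKM, and the relative depth from 55.5% (control normoxia replicate 2) to 100% (control hypoxia replicate 1). Both control normoxia libraries (76.3% and 55.5%) were shallower than both of control hypoxia (100% and 96.6%). This bears on normoxic values of 0, such as those of CD44 and TGFBR2. All 9 tested hypoxia check genes rose in control cells, among them CA9 by 6.29 on the log2 scale (SE 0.134, adjusted p = 0.00197).

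FLI1 fell in hypoxia in control cells, and its level in the hypoxic eKD cells also lay below normoxia. Its row takes reads from the 3′ part of the fusion as well as from any intact FLI1. It was at 36.7 and 36.5 FPKM in control normoxia, 20.8 and 22.2 in control hypoxia, 23.1 and 25.2 in eKD1 and 23.7 and 24.8 in eKD2. Both normoxic libraries stood above all 6 hypoxic ones. The change in hypoxia was -0.74 (SE 0.0785, adjusted p = 0.011), and the changes of eKD1 (0.16, adjusted p = 0.401) and eKD2 (0.17, adjusted p = 0.258) against control hypoxia were not called. EWSR1, whose row adds the intact gene to the fusion's first part, fell by 0.67 in hypoxia (SE 0.112, adjusted p = 0.024). LOXHD1, the gene whose enhancer was targeted, was at 155.8 and 168.5 FPKM in control normoxia, 93 and 91.1 in control hypoxia, 17.3 and 15 in eKD1 and 11.7 and 11.8 in eKD2. It was lower in every eKD library than in every control library, with changes of -2.44 (adjusted p = 0.0371) in eKD1 and -2.87 (adjusted p = 0.00617) in eKD2. LOX and LOXHD1 are unrelated genes on different chromosomes despite their names.

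**Figure D2:**
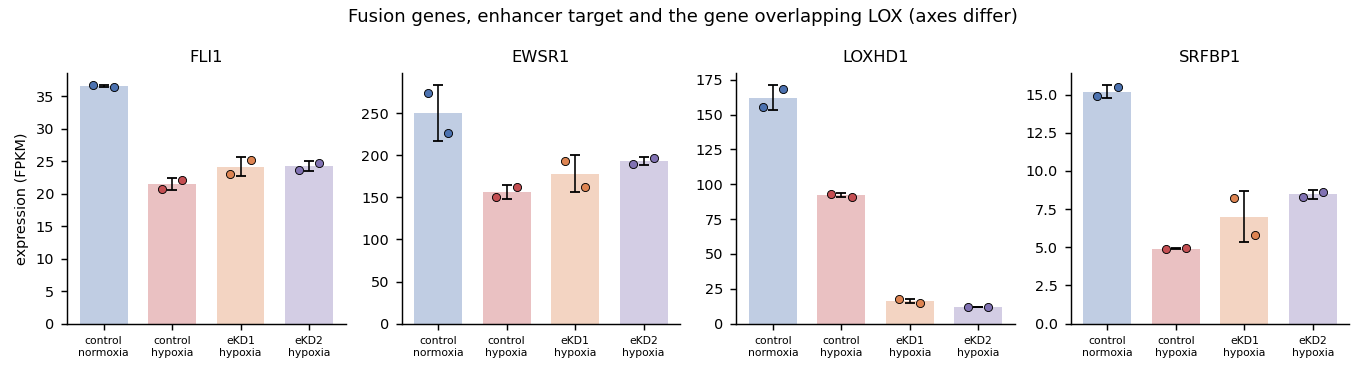
Expression in FPKM (y axes, which differ) of FLI1, EWSR1, LOXHD1 and SRFBP1, the gene that overlaps LOX, in the 4 groups of SK-N-MC libraries. Points are the 2 libraries, bars their mean and whiskers the SD. All 4 genes are lower in each of the 6 hypoxic libraries than in both normoxic ones, and LOXHD1 is lower still in the eKD libraries, at 11.7 to 17.3 FPKM.

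Of the 6 tested genes, LOX and ZYX rose in hypoxia in control cells and 0 fell. These are 2 of 6, where 16.2% of all tested genes were called higher and 16.0% lower. Both libraries of control hypoxia lay above both of control normoxia for LOX, ZYX and NT5E (3 of 6, against 35.9% of all tested genes), below them for TNC (1 of 6, against 34.5%), and overlapped them for FOXO1 and THBS1. The median change of the 6 was 0.48 and that of all tested genes 0.013. NT5E and THBS1 were under 1 FPKM in both normoxic libraries and passed the filter through hypoxic ones, so this median and these counts do not support a rise of the list. Scaling all libraries to equal FPKM totals turned the 2486 higher and 2460 lower calls among all genes into 1566 and 3944, and the median into -0.191. LOX and ZYX were called higher with that scaling as well.

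**Figure D3:**
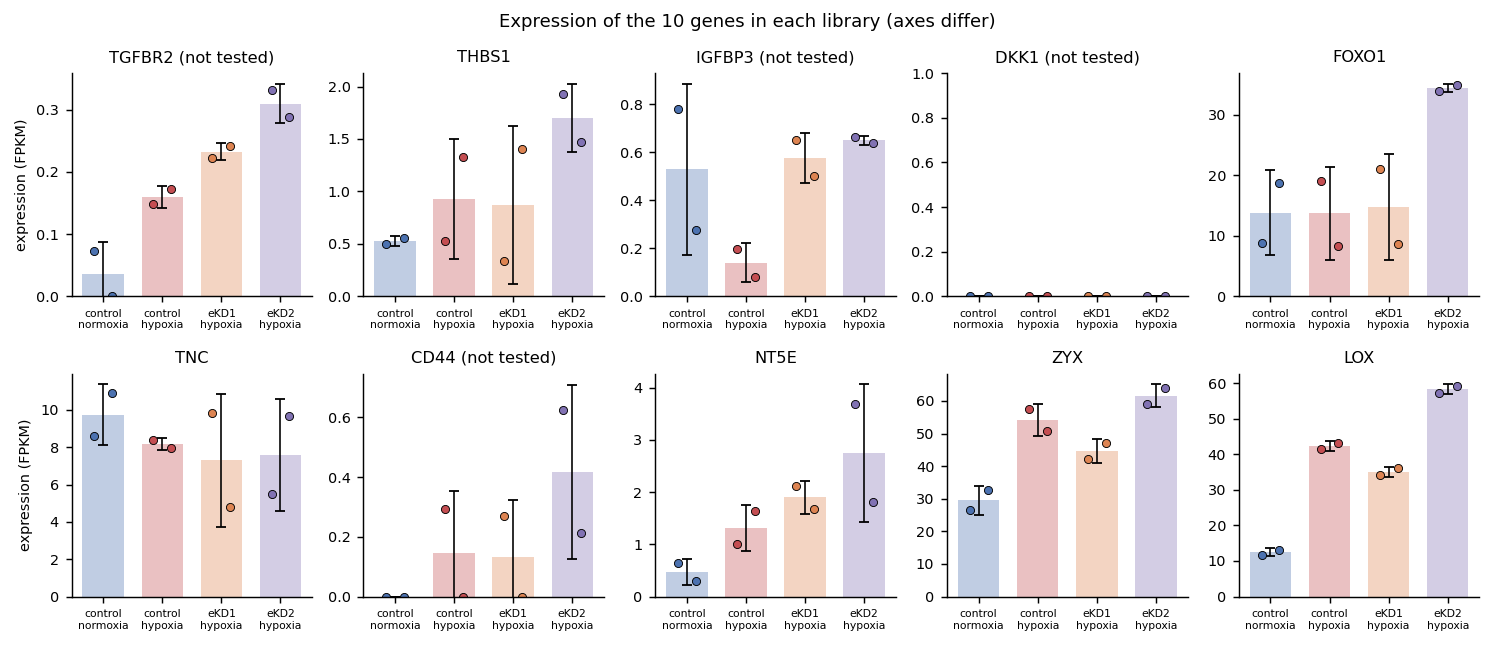
Expression of the 10 genes in FPKM (y axes, which differ and start at 0) in each of the 8 libraries. Points are the 2 libraries of a group, bars their mean and whiskers the SD, and genes that did not pass the filter are marked. LOX and ZYX stand clear of normoxia in every hypoxic library, FOXO1 has duplicates far apart in 3 groups, and DKK1 is listed at 0 throughout.

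Among the matrix genes, LOX rose most. LOX, lysyl oxidase, is secreted and cross-links collagen and elastin. The gene spans 121398890 to 121414108 of chromosome 5, minus strand (GRCh37 and GENCODE, as for all gene positions here). Its expression was 11.6 and 13.2 FPKM in control normoxia (12.4 ± 1.11, SD, n = 2), 41.4 and 43.3 in control hypoxia (42.4 ± 1.36), 34.1 and 36.1 in eKD1 (35.1 ± 1.4) and 57.3 and 59.3 in eKD2 (58.3 ± 1.43). No group overlapped another, and the order was control normoxia, eKD1, control hypoxia, eKD2. The change in hypoxia was 1.70 (SE 0.102, adjusted p = 0.00707), or 3.25-fold on the FPKM + 1 scale. It was called in 8 of 8 alternatives that kept all libraries, and with any 1 of the 4 libraries left out the change stayed between 1.62 and 1.79 while the adjusted p rose to between 0.0626 and 0.105.

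The exons of LOX overlap those of SRFBP1, which runs on the plus strand from 121297670 to 121411265. The kit did not keep the strand, so reads in the shared stretch cannot be assigned with certainty. SRFBP1 went the other way in hypoxia, from 14.9 and 15.5 FPKM in control normoxia to 4.88 and 4.95 in control hypoxia, with 8.21 and 5.82 in eKD1 and 8.27 and 8.65 in eKD2. Its change was -1.45 (SE 0.111, adjusted p = 0.0081). The part of read assignment between both genes in the change of LOX was not tested.

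TNC encodes tenascin-C, a matrix glycoprotein that loosens cell adhesion. It spans 117781854 to 117880486 of chromosome 9, minus strand. Its expression was 8.6 and 10.9 FPKM in control normoxia, 8.38 and 7.94 in control hypoxia, 9.81 and 4.77 in eKD1 and 5.48 and 9.69 in eKD2. The hypoxic controls lay just under the normoxic ones, and each eKD pair had 1 library within the range of the controls and 1 below every control library. Its change in hypoxia was -0.22 (95% confidence interval -0.66 to 0.22, adjusted p = 0.344). THBS1 encodes thrombospondin-1, a matrix protein that can activate latent TGF-beta, and spans 39873280 to 39891667 of chromosome 15, plus strand. It was low, at 0.495 and 0.56 FPKM in control normoxia, 0.524 and 1.33 in control hypoxia, 0.338 and 1.4 in eKD1 and 1.93 and 1.47 in eKD2. Replicate 1 of control hypoxia stayed at the normoxic level, and the change of 0.30 was not called (interval -0.47 to 1.07, adjusted p = 0.44). THBS1 shares exons with FSIP1 on the opposite strand, which was at 79.6 FPKM in control normoxia replicate 1 and at most 0.894 in the other libraries.

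ZYX was the adhesion and cytoskeleton gene that rose. It encodes zyxin, a LIM-domain protein of focal adhesions and actin stress fibers, and spans 143078388 to 143088204 of chromosome 7, plus strand. Its expression was 26.4 and 32.6 FPKM in control normoxia (29.5 ± 4.39, SD, n = 2), 57.5 and 50.7 in control hypoxia (54.1 ± 4.8), 42.1 and 47.2 in eKD1 (44.7 ± 3.62) and 59.1 and 64.1 in eKD2 (61.6 ± 3.58). The groups took the same order as for LOX, and none overlapped another. The change in hypoxia was 0.86 (SE 0.14, adjusted p = 0.0228), or 1.81-fold on the FPKM + 1 scale. The call was lost with no filter on low values (adjusted p = 0.0787) and with a replicate block (0.0592), and with any 1 library left out the adjusted p ran from 0.0648 to 0.147. EPHA1, whose exons overlap those of ZYX, was at 0.413 FPKM or less in all libraries.

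CD44, the receptor for hyaluronan, and NT5E, the surface enzyme CD73 that makes adenosine from AMP, are markers of mesenchymal stem cells. CD44 (chromosome 11, 35160429 to 35253949, plus strand) was listed at 0 in 4 of the 8 libraries. The others held 0.294 FPKM in control hypoxia replicate 1, 0.268 in eKD1 replicate 1 and 0.623 and 0.212 in eKD2. Both normoxic libraries were listed at 0, while eKD2 was the group with a value above 0 in both libraries. NT5E (chromosome 6, 86159302 to 86205509, plus strand) was at 0.642 and 0.3 FPKM in control normoxia, 1.00 and 1.63 in control hypoxia, 2.12 and 1.68 in eKD1 and 3.68 and 1.81 in eKD2. Every hypoxic library lay above both normoxic ones. The change in hypoxia was 0.65 (SE 0.244, interval -0.038 to 1.34), and it was not called (adjusted p = 0.122).

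TGFBR2, IGFBP3 and DKK1, the receptor and the secreted regulators of the set, stayed at very low levels in every condition. TGFBR2, the type II receptor that receives TGF-beta (chromosome 3, 30648093 to 30735634, plus strand), was at 0.0728 and 0 FPKM in control normoxia, 0.148 and 0.173 in control hypoxia, 0.223 and 0.242 in eKD1 and 0.332 and 0.288 in eKD2. The groups did not overlap and stood in that order, yet no library exceeded 0.332 FPKM. IGFBP3, a secreted binder of insulin-like growth factors (chromosome 7, 45951844 to 45961473, minus strand), was at 0.781 and 0.276 FPKM in control normoxia, 0.198 and 0.0823 in control hypoxia, 0.65 and 0.503 in eKD1 and 0.663 and 0.637 in eKD2. Control hypoxia was the lowest group. With no filter on low values, 0 of TGFBR2, IGFBP3 and CD44 were called by limma in any of the 4 comparisons. The smallest adjusted p was 0.085, for IGFBP3 in eKD2 against control hypoxia (0.54), and 5 of the 12 unadjusted p-values, those of TGFBR2 in hypoxia (0.0443) and of TGFBR2 and IGFBP3 in eKD1 (0.0275 and 0.0166) and eKD2 (0.0121 and 0.00582), were under 0.05. In the same fit of 27155 genes, 7917 genes in hypoxia, 4188 in eKD1, 5917 in eKD2 and 4357 in eKD2 against eKD1 were under 0.05. DKK1, a secreted inhibitor of Wnt signaling (chromosome 10, 54074041 to 54077802, plus strand), was listed at 0 in all 8 libraries and has no change to give.

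FOXO1, the forkhead factor restrained by AKT, was well expressed but poorly reproduced. It spans 41129804 to 41240778 of chromosome 13, minus strand. Its expression was 8.81 and 18.8 FPKM in control normoxia, 19.1 and 8.3 in control hypoxia, 21 and 8.58 in eKD1 and 33.9 and 34.9 in eKD2. The duplicates were 2.13-, 2.3- and 2.44-fold apart in the first 3 groups, while the eKD2 libraries agreed and lay above all others. In those 3 groups 4.9%, 2.88% and 3.28% of the tested genes had duplicates at least as far apart. The change in hypoxia was -0.029 with an interval of -1.58 to 1.53 (adjusted p = 0.975), so the data do not settle its sign or its size within that interval. FOXO1 shares exons with a long non-coding RNA on its own strand. TNC, CD44, DKK1 and THBS1 share exons with long non-coding RNAs on the opposite strand, so that reads there cannot be assigned with certainty either.

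**Figure D4:**
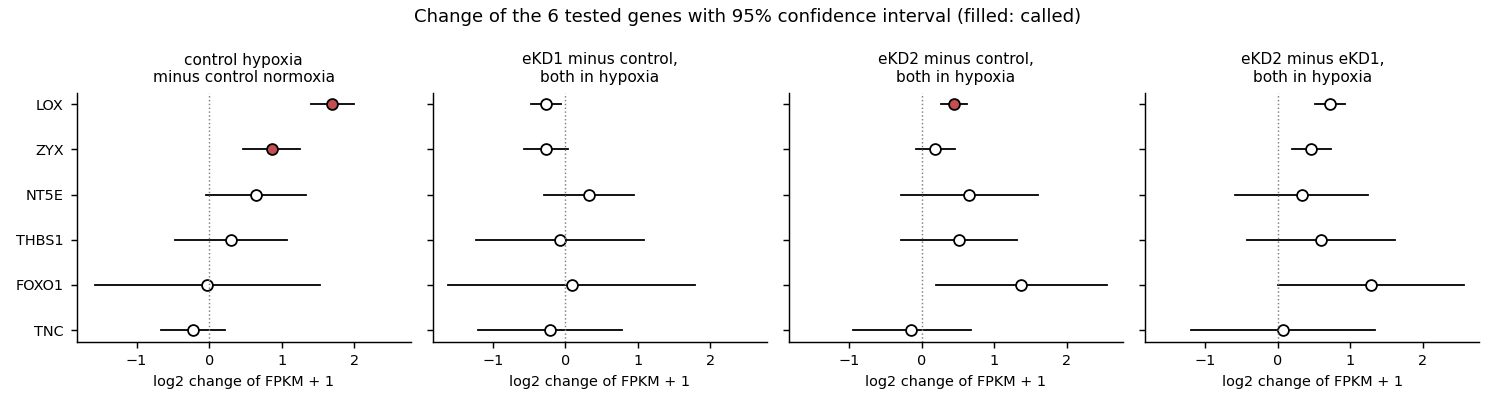
Change of log2(FPKM + 1) for the 6 tested genes (x axes) with the 95% confidence interval of limma, in 4 comparisons of 2 against 2 libraries. Filled points are called at an adjusted p under 0.05. LOX and ZYX are filled in hypoxia and LOX in eKD2, and FOXO1 has an interval of -1.58 to 1.53 in hypoxia.

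In hypoxic eKD1 cells, 0 of the 6 tested genes were called against control hypoxia, beside 0.0130% of all tested genes called higher and 0.0520% called lower. LOX (1 of 6) had an unadjusted p under 0.05 in limma, as did 3337 of all genes. Both eKD1 libraries lay above both control hypoxia libraries for NT5E (1 of 6, against 27.6% of all genes) and below them for LOX and ZYX (2 of 6, against 26.0%). LOX changed by -0.27 (interval -0.47 to -0.057, adjusted p = 0.177) and ZYX by -0.27 (interval -0.57 to 0.03, adjusted p = 0.258). NT5E changed by 0.33 (interval -0.29 to 0.95, adjusted p = 0.453), and the intervals of FOXO1 (-1.62 to 1.79), TNC (-1.20 to 0.78) and THBS1 (-1.23 to 1.08) span both directions. The median change of the 6 was -0.14, beside 0.0024 for all genes.

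In hypoxic eKD2 cells, LOX rose above control hypoxia, by 0.45 (SE 0.0638, adjusted p = 0.04), or 1.37-fold on the FPKM + 1 scale. It was 1 of 6 called higher, against 5.80% of all genes, and 0 of 6 were called lower, against 3.81%. The LOX call was past the threshold in 4 of 8 alternatives that kept all libraries, with adjusted p-values from 0.0203 to 0.0967, and with 1 library left out the adjusted p was 0.152 to 0.208. Both eKD2 libraries lay above both control hypoxia libraries for LOX, ZYX, NT5E, THBS1 and FOXO1 (5 of 6, against 35.8% of all genes), and below them for 0 of 6 (against 26.4%), while TNC overlapped. Of these, FOXO1 changed by 1.37 (SE 0.413, interval 0.20 to 2.55) and failed the adjustment (adjusted p = 0.117). NT5E changed by 0.66 (adjusted p = 0.264), THBS1 by 0.51 (0.288) and ZYX by 0.19 (0.264), all not called. The median change of the 6 was 0.48, beside 0.052 for all genes. In control hypoxia, THBS1 and NT5E lay near the 1 FPKM filter and the duplicates of FOXO1 were 2.3-fold apart. This median and the counts of libraries above therefore do not support a rise of the list. Equal FPKM totals moved the all-gene calls from 891 higher and 586 lower to 1478 and 430 and the median to 0.143, and median-of-ratios rescaling gave 741 and 859. The hypoxia, eKD1 and eKD2 comparisons share the control hypoxia libraries.

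Compared directly, eKD2 was above eKD1 in both libraries for LOX, ZYX, FOXO1 and THBS1 (4 of 6, against 31.9% of all genes) and below for 0 of 6 (against 23.3%). The difference was called for 0 of the 6, beside 0.286% of all genes called higher and 0.117% called lower. LOX, ZYX and FOXO1 (3 of 6) had an unadjusted p under 0.05, as did 3623 of all genes. The LOX difference was 0.72 (SE 0.0707, interval 0.51 to 0.92, adjusted p = 0.069), the ZYX difference 0.46 (SE 0.0942, adjusted p = 0.116) and the FOXO1 difference 1.29 (interval 0.003 to 2.57, adjusted p = 0.212). FLI1 differed by 0.0069 between the same libraries (interval -0.26 to 0.27). LOX was called in this comparison in the fit that shared the spread of all 8 libraries (adjusted p = 0.0104). LOX and ZYX lay below control hypoxia in eKD1 and above it in eKD2, as did 661 of the tested genes (4.3%).

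The genes most like ZYX across the 8 libraries, of 10804 with a mean of at least 5 FPKM, were TMEM9 and FEM1C, at root-mean-square differences of 0.0636 and 0.0921 in centred log2(FPKM + 1). TMEM9 averaged 51.2 FPKM in control normoxia, 99.1 in control hypoxia, 84.4 in eKD1 and 107 in eKD2. For LOX, ZNF395 was the closest (0.106). ZNF395 averaged 37.3, 117, 101 and 178 FPKM in the same groups. By group means, TMEM9 and ZNF395 took the order control normoxia, eKD1, control hypoxia, eKD2. Both were picked for their likeness over these same libraries, so the shared order follows from the choice.

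The counts of the gene lists in hypoxia stand beside 16.2% of all tested genes called higher, 16.0% called lower and a median of 0.013. Among 25 tested mesenchymal and fibroblast genes, 12 rose, 2 fell and 11 were not called, with a median change of 0.51. VIM, the intermediate filament vimentin, rose by 1.58 (adjusted p = 0.00352), THY1, the surface marker CD90, by 1.33 (0.00548) and ITGA5, the fibronectin receptor subunit, by 1.12 (0.0163). TWIST1, a transcription factor of the mesenchymal state, fell by 1.37 (0.00548), and ZEB2 fell as well (-0.90, adjusted p = 0.00801). Across the alternatives that kept all libraries the number called higher ran from 7 to 14 and the median from 0.28 to 0.52.

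Among 23 tested actin genes and targets of MRTF-SRF, the actin-sensing factor pair, 14 rose, 0 fell and 9 were not called, with a median of 0.67, beside the same 16.2% and 16.0% of all genes. CYR61 (CCN1), a matricellular protein, rose by 2.26 (adjusted p = 0.00709), FHL2, a LIM-domain protein like zyxin, by 2.07 (0.0078), TAGLN, which binds actin, by 1.34 (0.00852) and ACTA2, smooth muscle actin, by 1.30 (0.014). The count ran from 9 to 17 and the median from 0.43 to 0.68 across the alternatives. In eKD1 against control hypoxia, 0 genes of either list were called. In eKD2, CYR61 rose by a further 1.42 (adjusted p = 0.0133), CTGF (CCN2) by 1.16 (0.0317) and AMOTL2 by 0.80 (0.0273), while ACTN4, an actin cross-linker, fell by 0.33 (0.0495). CYR61 was also called higher in eKD2 than in eKD1, by 1.55 (0.0205). In the mesenchymal list, ZEB2 (1.07), TWIST1 (0.55) and COL5A2 (0.53) rose in eKD2 and ITGB1 (-0.42) and VIM (-0.40) fell, beside 5.80% of all genes called higher and 3.81% lower. ZEB2 averaged 68 FPKM in control normoxia, 36.1 in control hypoxia and 76.9 in eKD2, and TWIST1 averaged 164, 62.7 and 92.2. VIM was named here after its values were seen, since it rose in hypoxia.

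**Figure D5:**
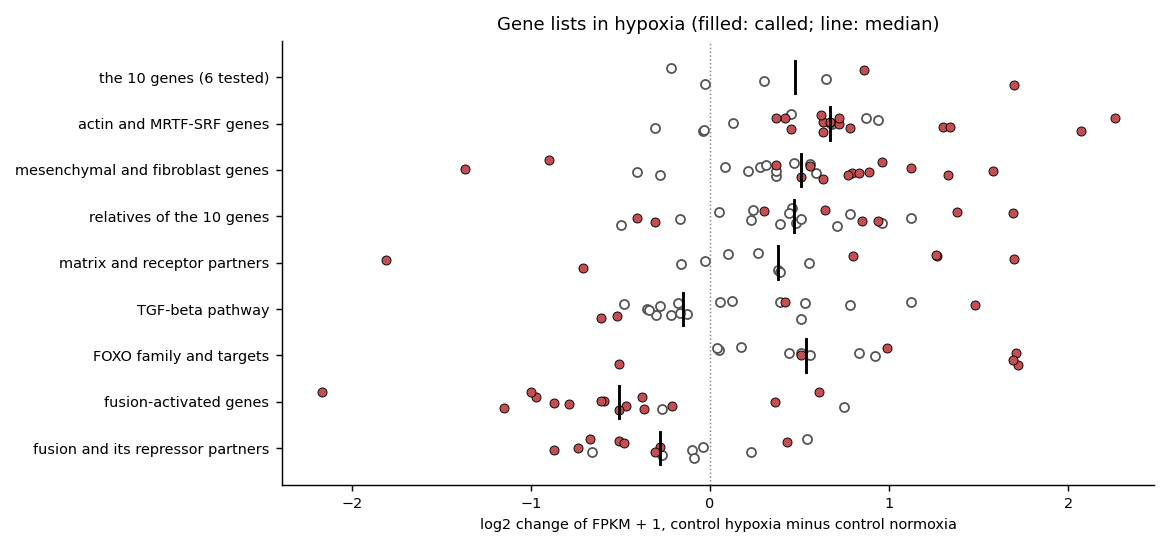
Change of log2(FPKM + 1) in control hypoxia minus control normoxia (x axis) for every tested gene of 9 lists. Filled points are called at an adjusted p under 0.05 and vertical lines are list medians. The actin list (median 0.67) and the mesenchymal list (0.51) lie mostly to the right of 0, and the fusion-activated genes (-0.51) mostly to the left.

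Of 22 tested relatives of the 10 genes, 6 rose and 2 fell in hypoxia, beside 16.2% and 16.0% of all genes, with a median of 0.47. The number called higher ran from 3 to 9 across the alternatives, and the number called lower from 1 to 3. LOXL2, another lysyl oxidase, rose by 1.69 (adjusted p = 0.0177), THBS4, another thrombospondin, by 1.38 (0.04), IGFBP2 by 0.94 (0.00809) and AJUBA, a LIM-domain relative of zyxin, by 0.85 (0.00875). The 2 that fell were TRIP6, also a relative of zyxin (-0.41, adjusted p = 0.0159), and IGFBP5 (-0.31, 0.0389). AJUBA was the relative that rose in eKD2 (1.06, adjusted p = 0.0288). It was 1 of 22 called higher, beside 5.80% of all genes, and 0 were called lower, beside 3.81%. Of 13 tested receptors, enzymes and other partners, 4 rose and 2 fell in hypoxia, beside the same shares of all genes. SDC4, a syndecan of focal adhesions, rose by 1.26 (0.00817), LAYN, another hyaluronan receptor, by 1.27 (0.0164), and KREMEN2, a receptor for DKK1, by 1.70 (0.00982). HMMR, which binds hyaluronan and the mitotic spindle, fell by 1.81 (0.00896) and rose in eKD2 by 1.30 (0.0359). In eKD2 it was 1 of 13 partners called higher, beside 5.80% of all genes, and 0 were called lower, beside 3.81%.

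In the TGF-beta pathway, 2 of 20 tested genes rose, 2 fell and 16 were not called in hypoxia, beside 16.2% of all genes called higher and 16.0% lower. Across the alternatives, 0 to 3 were called higher and 0 to 7 lower. SKI, a repressor of the pathway, rose by 0.42 (adjusted p = 0.0364), while the inhibitor SMAD6 fell by 0.61 (0.0229) and the ligand TGFB3 by 0.52 (0.0493). The median of this list was -0.15, and -0.38 to -0.15 across the alternatives. In eKD2, BAMBI (0.62), SMAD2 (0.60) and SMAD4 (0.49) rose, 3 of 20 beside 5.80% of all genes, and 0 fell, beside 3.81%. Among 14 tested FOXO family members and targets, 5 rose and 1 fell in hypoxia, beside 16.2% and 16.0% of all genes. CDKN1A, an inhibitor of the cell cycle, rose by 1.72 (0.009), GADD45A by 1.71 (0.00809), CCNG2 by 1.69 (0.00707) and PIK3IP1 by 0.99 (0.0336). In eKD2, where FOXO1 was highest, 3 of the 14 rose and 2 fell, beside 5.80% and 3.81% of all genes, with KLF6 at 1.12 (0.0273) and CDKN1B at 0.57 (0.0419) against SESN1 at -0.80 (0.0417) and CCNG2 at -0.67 (0.0475).

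Of 17 tested genes that the fusion activates, 13 fell and 2 rose in hypoxia, beside 16.0% of all genes called lower and 16.2% higher, with a median of -0.51. LIPI fell by 2.17 (adjusted p = 0.00665), STEAP2 by 1.15 (0.00809), SOX2 by 1.00 (0.00778) and KDSR by 0.97 (0.00681). In eKD2 against control hypoxia 7 rose and 1 fell, beside 5.80% and 3.81% of all genes and with 0 to 9 called higher across the alternatives, led by NR0B1 at 1.06 (0.0273), STEAP2 at 0.82 (0.0305) and LIPI at 0.81 (0.0359). Of the fusion's own genes, the repressors it switches on and their co-repressors, 7 of 15 fell and 1 rose in hypoxia, beside 16.0% of all genes called lower and 16.2% higher. Among those that fell were NR0B1 (-0.87, adjusted p = 0.0122) and BCL11B (-0.51, 0.0261), both of which rose in eKD2 (1.06 and 0.58). NKX2-2 was not called in hypoxia (-0.27, adjusted p = 0.0984) or in eKD2 (-0.048, 0.741). The co-repressors TLE1 (0.54), TLE2 (0.23) and TLE3 (-0.1) were not called in hypoxia either, nor were KDM1A, HDAC1 and CHD4. RCOR1 (-0.48, adjusted p = 0.0108), HDAC2 (-0.31, 0.0181) and EZH2 (-0.28, 0.0415) were called lower in hypoxia, and HDAC3 (0.43, 0.0118) higher. NR0B1, BCL11B and NKX2-2 are on both lists, so the counts of these lists partly repeat the same genes.

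The line's own markers were present, with 6 of 6 EwS markers tested. Of 13 markers of other cell types, 12 were in the table and 8 passed the filter. DES and GFAP were at 0.0481 and 0.0421 FPKM or less, MYOD1 at most at 0.789 and KRT19 at most at 1.62. Other markers on the list were expressed. EPCAM averaged 4.6 FPKM in control normoxia and 4.54 in control hypoxia, KRT8 3.66 and 4, KRT18 116 and 77.6, and PDGFRB 6.72 and 5.8. DCN, LUM and COL3A1, markers of fibroblasts, were high in all libraries, DCN between 131 and 153.1 FPKM. PTPRC, a leukocyte marker, was at 22.5 and 23.8 FPKM in control normoxia and 4.87 and 5.39 in control hypoxia, a change of -1.98 (adjusted p = 0.00684), and rose by 1.28 in eKD2 (0.0287). KRT18 fell by 0.58 in hypoxia (0.0114) and rose by 0.59 in eKD2 (0.031), and COL3A1 rose by 0.37 in hypoxia (0.0273). Their part in the changes of LOX and ZYX was not tested. In bulk libraries such as these, fewer cells of a type and less RNA per cell cannot be told apart.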

How the data were processed

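RNA was sequenced from SK-N-MC cells in 4 groups of 2 libraries, grouped by the sample titles. Libraries were poly-A selected and unstranded, and the authors mapped the single-end reads to GRCh37 (STAR), then obtained a value per gene from cufflinks and cuffnorm. The deposited unit is FPKM, with no read totals, so absolute depth is unknown and relative depth was read from the steps between low values. The authors tested read counts with a count model. Here the values are not counts, so limma 3.58.1 in R 4.3.3 (lmFit, eBayes with a variance trend, two-sided) was fitted to log2(FPKM + 1), each comparison on its own 4 libraries, for genes reaching 1 FPKM in 2 or more of 8 libraries, with Benjamini-Hochberg adjustment over all 15372. SD is over the 2 libraries of a group.

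The 10 genes and the other lists were chosen with earlier results of these data known. Named from each other list are the called genes of largest change, at most 4 per comparison. Some others were named after their values were seen. For each called gene of the 10, the 2 genes of smallest root-mean-square difference were found. Some genes chosen by these rules are not reported here. Alternatives covered the pseudocount, filter, scaling, fit, a replicate block and each library left out. Gene positions and overlaps are from GENCODE version 44 on GRCh37 and promoters from RefSeq on GRCh38.p14. The fit was checked on simulated data. PECAM1 was not analysed here.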

Additional observations from a re-analysis of the deposited data

Results flagged for a closer look

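LOX and ZYX were the genes of the 10 for which both eKD1 libraries lay below, and both eKD2 libraries above, the libraries of control hypoxia. The eKD2 minus eKD1 difference of log2(FPKM + 1) was 0.72 for LOX and 0.46 for ZYX. Tested directly by limma, neither difference passed the threshold (adjusted p = 0.069 and 0.116, with 2 of 2 eKD2 libraries above both eKD1 libraries for each gene). Over the 8 alternatives that kept all libraries, the adjusted p ran from 0.0104 to 0.207 for LOX and from 0.0787 to 0.207 for ZYX. The guide and the cell pool cannot be told apart in this difference.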

How the results depend on the processing

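Over the alternatives that kept all libraries, 177 values of the changes of the 10 genes kept their direction and side of the threshold, 6 lost a call, 1 gained one and 0 reversed. The hypoxia calls among the 10 went from 2 to 1 (LOX remained) with no filter and with the replicate block. The LOX call in eKD2 was lost, giving 0, with no filter, median-of-ratios rescaling, the replicate block and no variance trend, and 1 call (LOX) appeared in eKD2 against eKD1 with the shared fit of all 8 libraries. Over all genes, the calls were 4946 in hypoxia, 10 in eKD1, 1477 in eKD2 and 62 in eKD2 against eKD1. They became 3024, 206, 853 and 260 with no filter, and 2570, 0, 0 and 0 with the replicate block. Deviations of same-numbered libraries correlated across genes at r between -0.0574 and 0.126 over 6 pairs of groups. Each group has 1 such deviation, so these values cannot settle whether the numbers mark pairs. At an unadjusted p under 0.05 the replicate block gave 2707, 4517 and 3084 genes where it called 0. The shared fit gave 761, 2601 and 1391 in the last 3 comparisons, no variance trend 6, 28 and 5, and the filter at a mean of 5 FPKM 105 in eKD2 against eKD1.

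With 1 library left out, 1 group has a single library, which is assumed to vary like the other. The calls then ranged from 0 to 0 in every comparison, among the 10 and among all genes, whichever library was omitted. The smallest adjusted p of any gene was 0.0626, and 1808 to 6167 genes were under an unadjusted p of 0.05. Directions that reversed were all of genes not called. Changes of FOXO1 ran from -0.58 to 0.53 in hypoxia (0.48 and 0.53 without replicate 2 of control normoxia or of control hypoxia) and from -0.51 to 0.68 in eKD1 (-0.47 and -0.51 without control hypoxia replicate 2 or eKD1 replicate 1). Those of THBS1 ran from -0.0027 to 0.61 in hypoxia and from -0.49 to 0.35 in eKD1 (0.23 without control hypoxia replicate 2). Those of TNC ran from -0.67 to 0.24 in eKD1, from -0.50 to 0.22 in eKD2 and from -0.38 to 0.53 in eKD2 against eKD1 (-0.29 without eKD2 replicate 2), and that of NT5E in eKD2 against eKD1 from -0.042 to 0.70. The cause of these shifts was not tested. The values hold no counts, so no interval of a single value was computed, and low genes such as TGFBR2 and CD44 rest on an unknown number of reads.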
